A study of Mus musculus with 6 samples.

Results

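The 10 genes described here are those of fibroblast growth factor (FGF) signalling and of the response to its kinase ERK in mouse embryonic stem cells (mESC). They are the ligand *Fgf4*, the receptors *Fgfr1* and *Fgfr2*, the ERK phosphatases *Dusp4* and *Dusp6*, the inhibitors *Spry2* and *Spry4*, the ETS transcription factors *Etv4* and *Etv5*, and the immediate early gene *Egr1*. They were listed by name, and all 10 were found among the 22380 gene identifiers of the files. RNA was sequenced from mESC lines made from blastocysts, 3 *Ctrl* and 3 *Tet iTKO*, with no embryo giving more than 1 line. Both groups carried a Cre-ERT2 transgene, driven by the human ubiquitin C promoter, and a *Rosa26* H2B-EGFP reporter that Cre switches on. The *Tet iTKO* lines had in addition floxed alleles on both copies of *Tet1*, *Tet2* and *Tet3*, the genes of the TET enzymes that oxidise 5-methylcytosine in CG dinucleotides. Both groups received 1 µM 4-hydroxytamoxifen for 2.5 days, grew for 4 further days without it and were harvested at day 6.5. All lines grew on growth-arrested mouse embryonic fibroblasts with LIF and 2i, a pair of inhibitors of GSK3 and of MEK, the kinase that activates ERK. Live cells that carried CD326 (EpCAM) and GFP and lacked the fibroblast antigen CD90.2 were sorted before RNA extraction.

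FGF ligands bind receptor tyrosine kinases together with heparan sulfate proteoglycans, and the receptors act through adaptors, RAS, RAF and MEK on ERK. ERK switches on immediate early genes such as *Egr1*, the ETS factors *Etv4* and *Etv5*, and a set of inhibitors, the DUSP phosphatases and the Sprouty proteins, that limit its own activity. In mESC, FGF4 made by the cells themselves is the main source of this signal, which prepares them to leave the pluripotent state and in the blastocyst directs cells to the primitive endoderm.

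The levels below are counts per gene that the study divided by a size factor of each library and rounded, called normalized counts. They summed to between 3964824 and 4219665 per library, and the libraries had values above 0 for 13431 to 13539 genes in *Ctrl* and 14024 to 14363 in *Tet iTKO*. Fold changes of *Tet iTKO* against *Ctrl* are differences of log2(normalized count + 1), tested with limma and Benjamini-Hochberg adjustment over the 10524 genes with a mean of at least 10, and a gene was called at an adjusted p under 0.05. Of these genes, 34.8% were called, 16.4% as higher and 18.4% as lower in *Tet iTKO*, and the groups did not overlap for 44.1%. Fold changes rose with transcript GC content and with length across genes (Spearman's rho of 0.258 and 0.293 over 10457 genes), so values after a correction for both are given where they change the call of a named gene. Over the whole gene, the deposited values for *Tet1*, *Tet2* and *Tet3* gave log2 fold changes of 0.21, 0.14 and -1.67 (in limma, adjusted p = 0.026, 0.43 and 0.035). *Tet3* had means of 18.0 in *Ctrl* and 5.33 in *Tet iTKO*, so it passed the filter only through *Ctrl*. Without the filter its limma adjusted p was 0.074. The call of *Tet1* was lost after the correction (limma adjusted p = 0.99), and since the values cover all exons they do not show the deletion itself. In such bulk samples, fewer cells that express a gene and less of its RNA per cell cannot be told apart.

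Of the 10 genes, 8 were tested, 2 rose (*Fgfr1* and *Etv5*), 1 fell (*Dusp6*) and 5 were not called, which makes 37.5% called, near the 34.8% of all genes tested. Their median log2 fold change was -0.02, beside 0.01 over all genes tested. The groups did not overlap for 3 of the 8 (*Fgfr1*, *Fgfr2* and *Etv5*), beside 44.1% of all genes tested. *Dusp4* and *Egr1* were below the mean of 10. After correction for GC content and length, 1 of the 8 was called higher (*Fgfr1*) and 1 lower (*Etv4*), beside 27.1% of all genes called. With a minimum size of 1 for the log2 fold change added, which 6.25% of all genes tested met, limma called 0 of the 8, and *Fgfr2* was the only one with a change of that size (-1.17, adjusted p = 0.15).

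**Figure D1:**
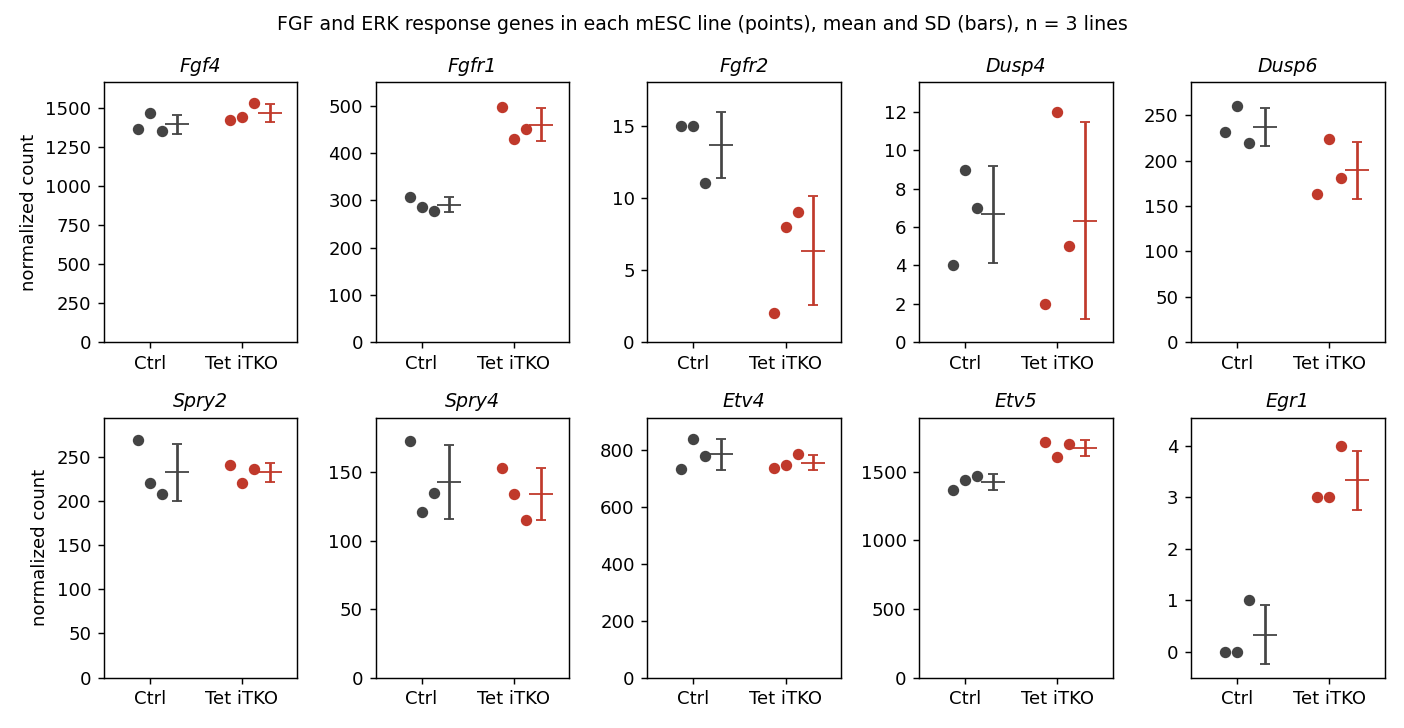
Normalized count (vertical axis, linear) of each of the 10 genes in 3 *Ctrl* and 3 *Tet iTKO* lines; points are lines, and the bars beside them give the mean and SD of the 3 lines. The groups are apart for *Fgfr1*, *Fgfr2*, *Etv5* and *Egr1* and overlap for the other genes, and *Egr1* reached at most 4 normalized counts.

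The regions just upstream of 4 of these genes are shown because TET enzymes act on CG dinucleotides, whose methylation was not measured in these RNA data. Each window holds the 250 bases before a RefSeq transcript start on GRCm38.p6, read 5′ to 3′ on the gene's strand, with every CG dinucleotide in capitals. The table of windows used here had 6 windows for 5 of the 10 genes, the other one belonging to *Spry2*. The windows of *Etv5*, which rose, *Dusp6*, which fell, and *Fgf4*, which was not called, are followed by that of *Fgfr2*, the gene with the fewest CG dinucleotides here.
*Etv5*, downstream start, chr16:22438369-22438618, minus strand: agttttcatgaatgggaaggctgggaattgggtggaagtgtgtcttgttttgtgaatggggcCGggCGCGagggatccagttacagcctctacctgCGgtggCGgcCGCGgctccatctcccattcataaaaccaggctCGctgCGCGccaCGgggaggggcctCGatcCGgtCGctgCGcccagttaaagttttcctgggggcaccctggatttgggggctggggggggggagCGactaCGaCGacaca
*Etv5*, upstream start, chr16:22439571-22439820, minus strand: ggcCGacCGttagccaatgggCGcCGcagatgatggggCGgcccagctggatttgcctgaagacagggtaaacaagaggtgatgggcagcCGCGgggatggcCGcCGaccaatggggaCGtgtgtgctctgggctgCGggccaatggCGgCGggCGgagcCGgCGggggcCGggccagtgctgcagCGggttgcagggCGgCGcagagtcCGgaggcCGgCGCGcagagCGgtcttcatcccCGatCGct
*Dusp6*, chr10:99262981-99263230, plus strand: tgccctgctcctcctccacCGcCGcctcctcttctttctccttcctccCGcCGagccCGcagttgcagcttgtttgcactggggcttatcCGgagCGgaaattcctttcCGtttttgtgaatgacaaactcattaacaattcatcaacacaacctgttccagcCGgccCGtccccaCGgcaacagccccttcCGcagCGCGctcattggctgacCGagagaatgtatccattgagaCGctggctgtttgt
*Fgf4*, chr7:144861136-144861385, plus strand: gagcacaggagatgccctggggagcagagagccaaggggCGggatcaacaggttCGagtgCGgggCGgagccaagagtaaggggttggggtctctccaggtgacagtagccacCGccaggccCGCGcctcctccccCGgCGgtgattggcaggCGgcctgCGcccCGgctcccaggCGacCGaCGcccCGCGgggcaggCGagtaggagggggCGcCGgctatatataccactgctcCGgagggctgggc
*Fgfr2*, chr7:130266809-130267058, minus strand: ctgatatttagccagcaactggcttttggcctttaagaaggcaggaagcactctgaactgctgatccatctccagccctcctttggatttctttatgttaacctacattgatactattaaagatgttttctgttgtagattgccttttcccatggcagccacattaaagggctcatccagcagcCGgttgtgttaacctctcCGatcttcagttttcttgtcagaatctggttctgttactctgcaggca

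The *Etv5* windows held 18 and 27 CG dinucleotides, that of *Dusp6* 16, that of *Fgf4* 21 and that of *Spry2* 23, and the window of *Fgfr2* held 2. Over all 32851 windows of the table the median was 6, with quartiles of 2 and 16. *Etv5* (upstream start) had more than 91.4% of the windows, *Spry2* more than 86.7% and *Fgfr2* more than 18.8%. The genes with windows at or above the upper quartile were *Etv5*, called higher, *Dusp6*, called lower, and *Fgf4* and *Spry2*, not called. The calls of *Etv5* and *Dusp6* were lost after the GC and length correction (limma adjusted p = 0.07 and 0.17). *Fgfr1* had no window here, so no relation of CG content to change is read from these windows. The letters CCGGAA, a form of the ETS site longer than its bare core, the AP-1 site TGACTCA and the serum response element known as the CArG box were searched on both strands. They were in 12.0%, 4.46% and 1.47% of all windows and in none of these 6. Shorter and other forms of the ETS site were not searched, so no lack of ETS sites is read from this.

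*Fgf4*, the FGF ligand of the epiblast and of mESC, was the most abundant of the 10 genes per transcript length and did not pass the test for a change. *Fgf4* (ENSMUSG00000050917.4, chromosome 7) reached 1365, 1470 and 1358 normalized counts across the 3 *Ctrl* lines, against 1425, 1448 and 1534 across the 3 of *Tet iTKO*. The highest *Ctrl* line lay between the *Tet iTKO* lines. The means were 1398 ± 62.7 and 1469 ± 57.5 (SD, n = 3 each), a log2 fold change of 0.07 with a 95% confidence interval from -0.05 to 0.19 (limma adjusted p = 0.38). Under quantile normalization, which gives every library the same distribution, the log2 fold change of *Fgf4* was 0.18 and passed the test (limma adjusted p = 0.018).

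*Fgfr1*, the FGF receptor of the naive epiblast and of mESC, rose in *Tet iTKO* mESC and had the smallest adjusted p of the 10 genes. *Fgfr1* (ENSMUSG00000031565.10, chromosome 8) stood at 308, 287 and 278 normalized counts across the *Ctrl* lines and at 498, 430 and 452 across *Tet iTKO*. Each *Tet iTKO* line was above every *Ctrl* line. The means of 291 ± 15.4 and 460 ± 34.7 (SD, n = 3 each) differed by 58.1%, a log2 fold change of 0.66 (standard error 0.10, 95% confidence interval 0.46 to 0.86, limma adjusted p = 1.5e-06), and 11.3% of the genes tested had a larger rise. After the GC and length correction the rise was 0.33 on the log2 scale (95% confidence interval 0.13 to 0.53, limma adjusted p = 0.01). An antisense gene, *Gm16159*, is annotated over *Fgfr1* exons, and the library method does not keep strand, so reads from both cannot be told apart.

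*Fgfr1* is also expressed by fibroblasts, and the cells had grown on fibroblast feeders. Of 9 feeder fibroblast markers, 4 were tested, and the 3 collagen genes *Col1a1*, *Col1a2* and *Col3a1* rose (log2 fold changes of 0.89, 1.17 and 1.36, with limma adjusted p = 4.1e-07, 0.00033 and 0.0003). *Thy1*, which encodes the CD90 antigen used in the sort, had 39.0 ± 8.19 and 35.0 ± 12.0 normalized counts (SD, n = 3 each, limma adjusted p = 0.69). *Postn* was at 3 normalized counts or fewer in every line, and *Pdgfrb*, *Lum*, *Dcn* and *S100a4* were below a mean of 10. The 9 markers summed to 280 to 293 normalized counts per *Ctrl* line and to 477 to 555 per *Tet iTKO* line. This rise of the sum came from the 3 collagen genes, *Col1a1* alone averaging 167 in *Ctrl* and 311 in *Tet iTKO* lines. The means of *Thy1*, *Pdgfrb*, *Lum*, *Dcn* and *S100a4* were lower in *Tet iTKO*, and that of *Postn* went from 0.333 to 1.33. The part of feeder cells in the rise of *Fgfr1* was not tested.

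*Fgfr2*, a receptor best known from the primitive endoderm and from epithelia, was near the limit of what these libraries show. *Fgfr2* (ENSMUSG00000030849.10, chromosome 7) stood at 15, 15 and 11 normalized counts across the *Ctrl* lines and at 2, 8 and 9 across *Tet iTKO*. The groups did not overlap, and the lowest line, *Tet iTKO* 1, was under the floor of 3 normalized counts taken here as the least that can be told from 0. The means were 13.7 ± 2.31 and 6.33 ± 3.79 (SD, n = 3 each), and the log2 fold change of -1.17 had a 95% confidence interval from -2.45 to 0.11 (limma adjusted p = 0.15). Without *Tet iTKO* 1 it was -0.62 (limma adjusted p = 0.48). *Fgfr2* passed the filter on the mean only through the *Ctrl* lines, and without any one of them it fell below it. *Fgfr2* shares annotated exons with *Ctbp2* on the same strand, which had 1397 to 1488 normalized counts in *Ctrl* and 1564 to 1737 in *Tet iTKO* lines, so that the low values of *Fgfr2* are uncertain. Of 6 primitive endoderm markers, which summed to 24 to 32 normalized counts in *Ctrl* and 26 to 47 in *Tet iTKO* lines, 2 were tested. *Gata4* averaged 6.33 ± 4.04 normalized counts in *Ctrl* and 20.0 ± 7.55 in *Tet iTKO* lines (SD, n = 3 each, limma adjusted p = 0.03, and 0.089 after correction). It passed the filter on the mean only through the *Tet iTKO* lines. Without the filter its limma adjusted p was 0.084, so no rise is read from it. *Sox7* was not called (limma adjusted p = 0.15).

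The log2 ratio of *Fgfr1* to *Fgfr2* was 4.27, 4.17 and 4.54 across the *Ctrl* lines and 7.38, 5.58 and 5.50 across *Tet iTKO*. Every *Tet iTKO* line had the higher ratio. The means of 4.33 ± 0.19 and 6.15 ± 1.06 (SD, n = 3 each) differed by 1.83, with an exact two-sided permutation p of 0.1, the smallest that 3 lines against 3 allow. Without *Tet iTKO* 1, whose *Fgfr2* value was under the floor, the difference was 1.21, and leaving out single lines gave 1.21 to 2.15. *Fgfr2* passed the filter only through *Ctrl* and its low values are uncertain, so no change is read from this ratio.

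*Dusp6* encodes the cytoplasmic phosphatase that inactivates ERK and is itself switched on by ERK. *Dusp6* (ENSMUSG00000019960.6, chromosome 10) stood at 232, 260 and 219 normalized counts across the *Ctrl* lines and at 163, 224 and 181 across *Tet iTKO*. The lines labelled *Tet iTKO* 1 and 3 were below every *Ctrl* line, while *Tet iTKO* 2 lay between *Ctrl* 3 and *Ctrl* 1, so the groups overlapped. The mean fell from 237 ± 21.0 to 189 ± 31.3 (SD, n = 3 each), a log2 fold change of -0.33 (95% confidence interval -0.60 to -0.07) that was just past the threshold (limma adjusted p = 0.047). The call was lost after the GC and length correction (-0.25, limma adjusted p = 0.17). It was also lost without *Ctrl* 1, *Ctrl* 2, *Tet iTKO* 1 or *Tet iTKO* 3 (limma adjusted p = 0.074, 0.19, 0.22 and 0.13), and leaving out single lines gave log2 fold changes from -0.46 to -0.23.

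*Dusp4*, which encodes a nuclear phosphatase of the same family, was low in all lines. *Dusp4* stood at 4, 9 and 7 normalized counts across the *Ctrl* lines and at 2, 12 and 5 across *Tet iTKO*. The highest and the lowest value were both in *Tet iTKO* lines. Without the filter on the mean, its log2 fold change was -0.26 (limma adjusted p = 0.81), and a difference was not detectable at this depth. The log2 ratio of *Dusp6* to *Dusp4* was 5.01 ± 0.46 in *Ctrl* and 4.94 ± 0.83 in *Tet iTKO* lines (SD, n = 3 each, exact two-sided permutation p = 1.0).

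The Sprouty genes, whose products block the path from receptors to RAS and RAF, did not pass the test. *Spry2* (chromosome 14) stood at 269, 220 and 208 normalized counts across the *Ctrl* lines and at 241, 220 and 236 across *Tet iTKO*. All *Tet iTKO* values fell within the range of *Ctrl*. The means were 232 ± 32.3 and 232 ± 11.0 (SD, n = 3 each), and the log2 fold change of 0.01 had a 95% confidence interval from -0.24 to 0.26 (limma adjusted p = 0.97).

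*Spry4* (chromosome 18) stood at 173, 121 and 135 normalized counts across the *Ctrl* lines and at 153, 134 and 115 across *Tet iTKO*. The highest line was *Ctrl* 1 and the lowest *Tet iTKO* 3, with the others mixed. The log2 fold change was -0.09 (95% confidence interval -0.42 to 0.24, limma adjusted p = 0.72). The log2 ratio of *Spry4* to *Spry2* was -0.70 ± 0.13 in *Ctrl* and -0.80 ± 0.20 in *Tet iTKO* lines (SD, n = 3 each, exact two-sided permutation p = 0.5). After the GC and length correction the means of this ratio differed by -0.41 (exact two-sided permutation p = 0.1, the smallest possible).

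*Etv4* and *Etv5* encode closely related ETS factors of the PEA3 group, which carry FGF signals to the genome. *Etv5* rose by 17.5% in *Tet iTKO* mESC. *Etv5* (chromosome 16) stood at 1363, 1441 and 1470 normalized counts across the *Ctrl* lines and at 1717, 1606 and 1698 across *Tet iTKO*. Every *Tet iTKO* line was above every *Ctrl* line. The means were 1425 ± 55.3 and 1674 ± 59.4 (SD, n = 3 each), a log2 fold change of 0.23 (standard error 0.06, 95% confidence interval 0.11 to 0.35, limma adjusted p = 0.0018). The call was lost after the GC and length correction (0.14, 95% confidence interval 0.02 to 0.25, limma adjusted p = 0.07).

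*Etv4* (chromosome 11) stood at 734, 841 and 781 normalized counts across the *Ctrl* lines and at 736, 747 and 786 across *Tet iTKO*. The *Tet iTKO* values all lay within the range of *Ctrl*. The means of 785 ± 53.6 and 756 ± 26.3 (SD, n = 3 each) gave a log2 fold change of -0.05 (95% confidence interval -0.20 to 0.10, limma adjusted p = 0.62). After the GC and length correction *Etv4* was called lower (-0.29, 95% confidence interval -0.43 to -0.14, limma adjusted p = 0.002).

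The log2 ratio of *Etv5* to *Etv4* was 0.89, 0.78 and 0.91 across the *Ctrl* lines and 1.22, 1.10 and 1.11 across *Tet iTKO*. It was higher in every *Tet iTKO* line, with a difference between the means of 0.28, and the exact two-sided permutation p was 0.1, the smallest possible.

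*Egr1*, an immediate early gene that ERK switches on within minutes, was barely detected. *Egr1* (chromosome 18) stood at 0, 0 and 1 normalized counts across the *Ctrl* lines and at 3, 3 and 4 across *Tet iTKO*. Only *Tet iTKO* 3 was above the floor of 3 normalized counts, so no fold change is given. With values so near the floor, no rise is read from the limma adjusted p of 0.026 in a fit without the filter on the mean.

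**Figure D2:**
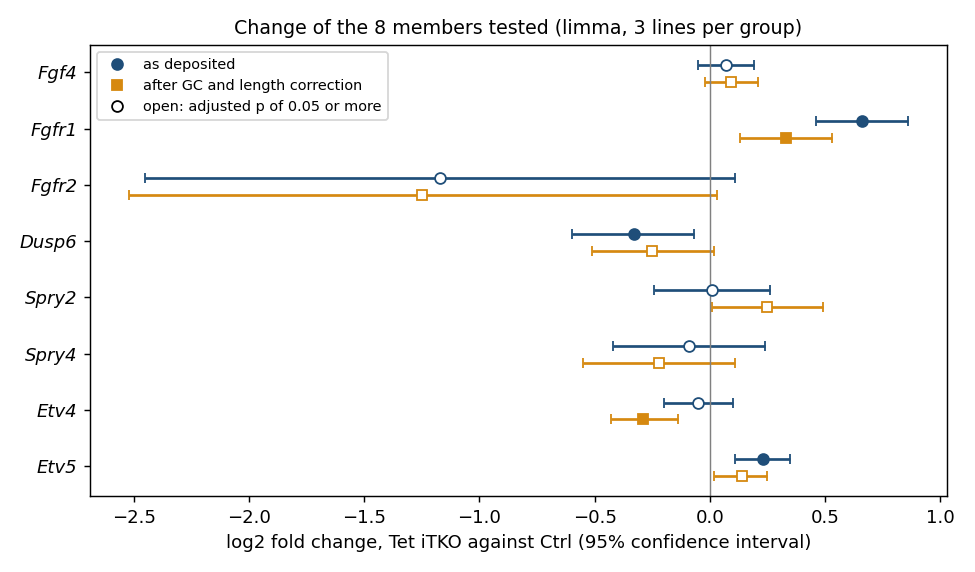
Log2 fold change of *Tet iTKO* against *Ctrl* (horizontal axis) with its 95% confidence interval for the 8 genes tested, from the deposited values (circles) and after the GC and length correction (squares); filled symbols have a limma adjusted p under 0.05. *Fgfr1* was called in both, *Dusp6* and *Etv5* from the deposited values and *Etv4* after the correction, and the interval of *Fgfr2* ran from -2.45 to 0.11.

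Divided by the length of the principal annotated transcript, the levels of the 10 genes spanned from *Fgf4* to *Egr1*, which was 0 in 2 *Ctrl* lines. In *Ctrl* lines, *Fgf4* had 448 to 485 normalized counts per kb, *Etv5* 343 to 370 and *Etv4* 306 to 351. *Fgf4* was above *Etv5* in every line, whereas *Etv5* and *Etv4* overlapped in *Ctrl*. In *Tet iTKO* lines *Etv5* (404 to 432 per kb) and *Etv4* (307 to 328 per kb) were apart.

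*Spry2* followed with 99.7 to 129 normalized counts per kb in *Ctrl* and 105 to 115 in *Tet iTKO* lines. *Dusp6* had 78.3 to 93.0 per kb in *Ctrl* and 58.3 to 80.1 in *Tet iTKO* lines. *Fgfr1* had 55.1 to 61.1 per kb in *Ctrl* and 85.3 to 98.8 in *Tet iTKO* lines. Per kb, *Fgfr1* was thus below *Dusp6* in all *Ctrl* lines and above it in all *Tet iTKO* lines. This order in *Ctrl* depends on the annotated lengths used, 5041 bases for *Fgfr1* and 2796 for *Dusp6*. In normalized counts without the division, *Fgfr1* was above *Dusp6* in every *Ctrl* line as well. *Spry4* came next, with 25.4 to 36.4 per kb in *Ctrl* lines. *Fgfr2* (2.48 to 3.39 per kb) and *Dusp4* (1.46 to 3.28 per kb) overlapped in *Ctrl* lines, both far below *Spry4*.

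**Figure D3:**
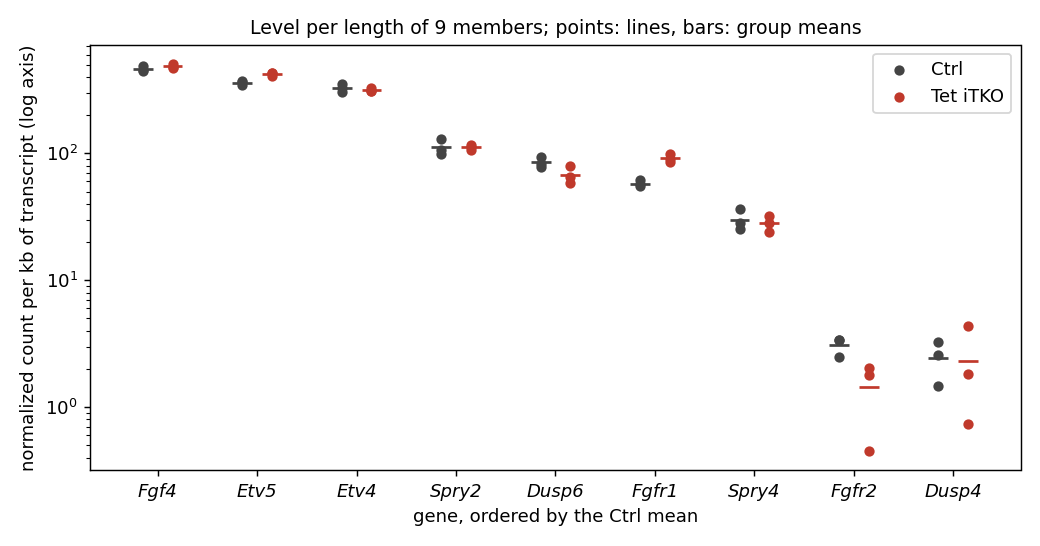
Normalized counts per kb of transcript (vertical axis, log scale) for 9 of the genes in each *Ctrl* and *Tet iTKO* line (points) with group means (bars), ordered by the *Ctrl* mean; *Egr1*, with values of 0, is left out. *Fgf4*, *Etv5* and *Etv4* lie above 300 per kb and *Fgfr2* and *Dusp4* below 5. *Fgfr1* and *Dusp6* change places between the groups on this scale, but not in normalized counts without the division by length.

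The wider pathway was described by 6 lists of genes, which hold 102 genes besides these 10. Of these, 101 were in the files and 61 were tested, of which 5 rose and 7 fell (19.7%, beside 34.8% of all genes tested). A further 19 had 3 normalized counts or fewer in every line.

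Among 22 FGF ligands only *Fgf4* and *Fgf17* were tested, and neither was called. *Fgf17* averaged 130 ± 28.1 normalized counts over *Ctrl* and 126 ± 5.29 over *Tet iTKO* lines (SD, n = 3 each, limma adjusted p = 0.93). At 3 normalized counts or fewer in every line were 13 ligands, among them *Fgf2*, *Fgf6* and *Fgf9*, which were at 0 in all lines. *Fgf8*, a ligand of the gastrulating embryo, was picked out after its values were seen. It had 0 normalized counts in all 3 *Ctrl* lines, against 13, 10 and 7 across *Tet iTKO*. Each *Tet iTKO* line was thus above the floor of 3 normalized counts. *Fgf8* was below the filter on the mean, so no fold change is given. As it was chosen by its values, no rise is read from the limma adjusted p of 0.00094 in a fit without that filter. *Fgf5*, a marker of cells that leave the naive state, had 1 to 3 normalized counts in *Ctrl* and 1 to 5 in *Tet iTKO* lines.

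Of 12 receptors and co-receptors, 8 were tested, 1 rose (*Fgfr1*) and 2 fell, with a median log2 fold change of -0.03. Both genes that fell encode heparan sulfate proteoglycans of the cell surface. Glypican 4, *Gpc4*, stood at 297, 307 and 293 normalized counts across the *Ctrl* lines and at 155, 119 and 140 across *Tet iTKO*, a log2 fold change of -1.12 (in limma, adjusted p = 1.1e-08). Syndecan 4, *Sdc4*, stood at 681, 700 and 716 normalized counts across the *Ctrl* lines and at 419, 417 and 478 across *Tet iTKO*, a log2 fold change of -0.68 (in limma, adjusted p = 3.6e-08). For both genes the groups were well apart, and both calls held after the GC and length correction (-1.06 and -0.57). Other members of these protein families, *Gpc3* and *Sdc1*, were not called (log2 fold changes of -0.05 and 0.00, with limma adjusted p = 0.83 and 0.99). *Fgfr4* stood at 4, 5 and 7 normalized counts across *Ctrl* and at 11, 24 and 12 across *Tet iTKO* and was not called (limma adjusted p = 0.087).

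Of 23 adaptors and members of the RAS-ERK cascade, 20 were tested, 2 rose and 3 fell, and the median log2 fold change was 0.09. After the GC and length correction 1 was called higher (*Map2k1*) and 3 lower (*Grb2*, *Map2k2* and *Rps6ka1*). *Map2k1*, which encodes MEK1, a target of the MEK inhibitor in the medium, rose from 891 ± 31.6 to 1203 ± 32.0 normalized counts (SD, n = 3 each). Its log2 fold change was 0.43 (in limma, adjusted p = 1.8e-06, and 0.50 on the log2 scale after correction). *Map2k2*, which encodes MEK2, was not called (0.04, limma adjusted p = 0.7) but was called lower after correction (-0.26, adjusted p = 0.0013). The RAS gene *Nras* fell from 1129 ± 67.1 to 930 ± 45.0 normalized counts (SD, n = 3 each, log2 fold change -0.28, limma adjusted p = 0.0013), and *Hras* was not called (0.05, adjusted p = 0.62). The adaptor gene *Shc1* rose (log2 fold change 0.22, limma adjusted p = 0.036), while the adaptor gene *Grb2* (-0.28, adjusted p = 0.0063) and the scaffold gene *Lamtor3* (-0.44, adjusted p = 0.015) fell. The calls of *Nras*, *Shc1* and *Lamtor3* were lost after the GC and length correction (limma adjusted p = 0.092, 0.24 and 0.41). *Mapk3*, which encodes the ERK1 kinase, was not called (log2 fold change 0.16, limma adjusted p = 0.25).

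Of 21 inhibitors and feedback genes, 20 were in the files and 16 were tested, of which 1 rose and 1 fell (*Dusp6*), with a median log2 fold change of 0.07. After the correction *Spred1* was called higher (0.43, limma adjusted p = 0.047) and *Dusp9* lower. The one that rose, *Dusp7*, encodes another cytoplasmic ERK phosphatase and stood at 41, 61 and 34 normalized counts across the *Ctrl* lines and at 84, 78 and 55 across *Tet iTKO*. Its groups overlapped, and its log2 fold change was 0.68 (limma adjusted p = 0.04, and 0.29 after correction). *Dusp9*, another ERK phosphatase gene, was not called (0.02, limma adjusted p = 0.89) but was called lower after correction (-0.26, adjusted p = 0.0045). Also not called was *Spry1* (0.05, adjusted p = 0.89). *Spry3* was not analysed here.

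Of 14 ETS factors and their repressor, 12 were tested, 1 rose (*Etv5*) and 2 fell, with a median log2 fold change of 0.22. After the correction 2 were called higher and 4 lower. *Etv1*, the remaining gene of the PEA3 group, stood at 72, 45 and 95 normalized counts across the *Ctrl* lines and at 21, 30 and 46 across *Tet iTKO*. *Ctrl* 2 and *Tet iTKO* 3 were nearly level, so the groups overlapped. Its log2 fold change was -1.11 (limma adjusted p = 0.0042). On the deposited values *Etv5* was thus called higher, *Etv1* lower and *Etv4* neither, whereas after the correction *Etv1* (-1.04, limma adjusted p = 0.0094) and *Etv4* were called lower and *Etv5* was not called. *Etv6* fell from 132 ± 8.14 to 90.7 ± 6.11 normalized counts (SD, n = 3 each, log2 fold change -0.53, limma adjusted p = 0.014). *Cic*, which encodes the repressor that ERK releases from the PEA3 genes, was not called (0.21, adjusted p = 0.25) but was called lower after correction (-0.64, limma adjusted p = 0.0003).

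Of 21 immediate early genes, 12 were tested, 2 rose and none fell, with a median log2 fold change of 0.18. After the correction 2 were called higher and 1 (*Junb*, -0.63, limma adjusted p = 0.016) lower. *Zfp36*, which encodes an RNA-binding protein that speeds mRNA decay, stood at 26, 45 and 26 normalized counts across the *Ctrl* lines and at 77, 82 and 94 across *Tet iTKO*. The groups were well apart, with a log2 fold change of 1.40 (in limma, adjusted p = 7.8e-05), and 1.32 after correction. *Jund* rose from 472 ± 24.4 to 575 ± 25.1 normalized counts (0.29, limma adjusted p = 0.0072), a call that was lost after correction (0.01, adjusted p = 0.94). *Ier2* averaged 1159 ± 36.4 normalized counts in *Ctrl* and 1146 ± 60.5 in *Tet iTKO* lines (limma adjusted p = 0.87). *Egr2*, *Egr3* and *Fosb* were at 3 normalized counts or fewer in every line, and *Fos* reached at most 5.

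**Figure D4:**
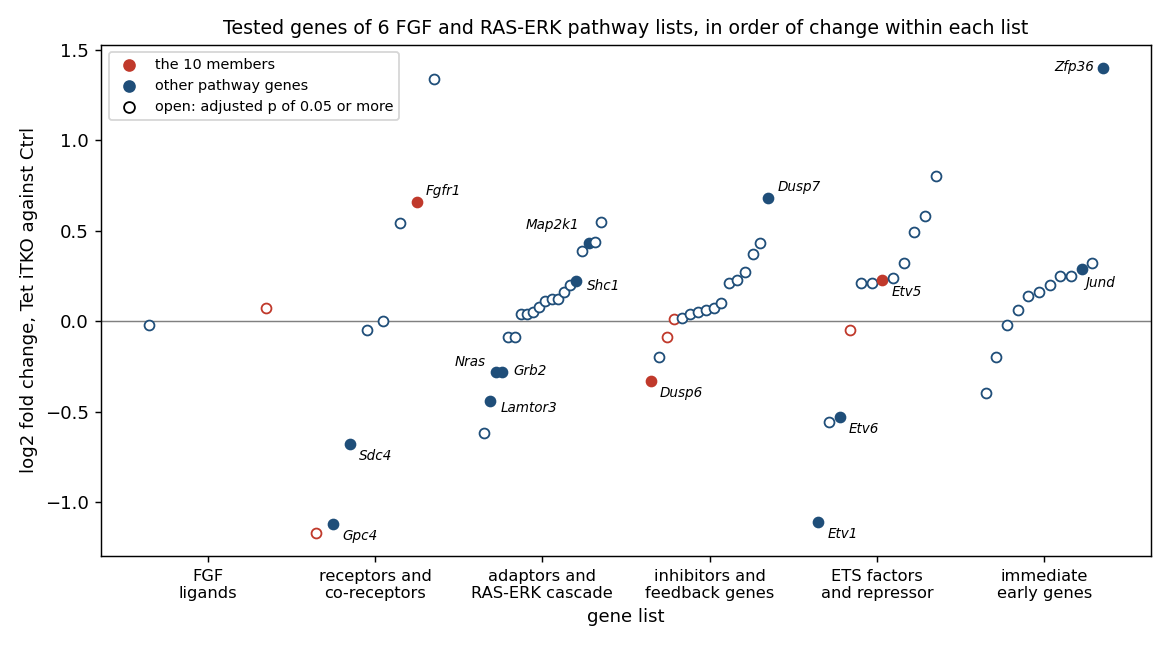
Log2 fold change of *Tet iTKO* against *Ctrl* (vertical axis) for the tested genes of 6 pathway lists, arranged within each list in order of change; red marks the 10 genes described first, and filled symbols have a limma adjusted p under 0.05. Open symbols make up most of each list. Among the filled symbols, *Gpc4*, *Etv1* and *Sdc4* lie lowest and *Zfp36*, *Dusp7* and *Fgfr1* highest. The lowest and the highest open symbols are *Fgfr2* (-1.17) and *Fgfr4* (1.34).

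Of 9 mESC markers, which were read as a check of the cell type, 8 were tested, 2 rose and 4 fell, beside 34.8% of all genes tested called. The markers summed to 27122 to 27511 normalized counts in *Ctrl* and 23259 to 24203 in *Tet iTKO* lines. Most of this fall of the sum came from *Dppa5a*, so no change of cell type is read from it. *Pou5f1* averaged 5490 ± 299 normalized counts over *Ctrl* and 4489 ± 249 over *Tet iTKO* lines (SD, n = 3 each, log2 fold change -0.29, limma adjusted p = 5.7e-06), and *Epcam*, which encodes the CD326 antigen of the sort, rose (0.45, adjusted p = 4.5e-06). After the GC and length correction 3 of the 8 markers were called higher and 1 lower, beside 27.1% of all genes called. The calls of *Nanog* and *Zfp42* as lower and of *Esrrb* as higher were lost (limma adjusted p = 0.5, 0.64 and 0.71). *Dppa5a*, with the largest fall in normalized counts of the list (11226 ± 308 to 8573 ± 379, SD, n = 3 each), turned from lower (-0.39, limma adjusted p = 4.1e-10) to higher (0.23, adjusted p = 5.4e-06). *Fut4* was at 3 normalized counts or fewer in every line.

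Over the 6 lines, the genes whose normalized counts were most alike in pattern were sought for the 3 of the 10 genes with the highest mean normalized count, among 7723 genes with a mean of at least 50. These were *Fstl1* for *Etv5* (Pearson's r = 0.998), *Gcc1* for *Fgf4* (r = 0.996) and *Nagpa* for *Etv4* (r = 0.971). The points share their group and library, and with 6 points many genes come close, since 500 genes had an r above 0.9 with *Etv5*, 45 with *Fgf4* and 27 with *Etv4*.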

How the data were processed

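RNA-Seq of 6 mESC lines was analysed, grouped by the labels. The authors made Smart-Seq2 libraries, took unique STAR alignments of paired reads, each 50 bases long, and counted them per gene with HTSeq (0.7.1), then normalized with DESeq2 (1.26.0) in R 3.5.2; their processing notes name mm9. The paper's methods give strand-specific counting, although the library method does not keep strand. How this affects the counts was not tested, and it concerns all genes. The deposited values are of the unit score, normalized counts rounded to whole numbers, so no count model was run. Reads lack molecular identifiers, and the floor of 3 normalized counts covers counting error only.

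GENCODE M21 gave symbols to 20775 identifiers and none to 1605. Genes with a mean of at least 10 were tested with limma 3.58.1 (lmFit, eBayes with trend) in R 4.3.3. Gene ratios got exact permutation tests. The correction subtracted, per library, a loess fit (span 0.3) on GC content and log2 length. Python 3.11.15, pandas 2.3.3, NumPy 2.4.6 and SciPy 1.17.1 handled tables, and the fit was tested on simulated data. Promoter windows came from RefSeq (GRCm38.p6), and other coordinates were not used, since the builds differ. The 10 genes and all lists were chosen with earlier results of these data known. The genes named are the 10, up to 4 called genes with the largest rise and 4 with the largest fall per pathway list, list genes at the floor, markers, *Tet1*, *Tet2*, *Tet3* and the best correlated gene of 3 members. Other list genes were named after their values were seen. Some genes of the RAS-ERK cascade are not reported here and were left out of the list and its counts. P-values measure the spread between lines, and replicate pairs differed by more than counting noise. Alternatives were pseudocounts of 0.5 and 4, no filter, a mean of at least 50, quantile normalization, trimmed means of M values, no variance trend, a replicate block, the correction, a fold threshold and leaving out each line.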

Additional observations from a re-analysis of the deposited data

How the results depend on the processing

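The 2 higher and 1 lower calls among the 10 genes became 1 higher and 0 lower without the variance trend. Under the GC and length correction, with or without the block, they became 1 higher and 1 lower (*Etv4* in place of *Dusp6*). When a log2 fold change of 1 or more was required, 0 were called. The higher calls became 3 without the filter (*Egr1* added, with at most 4 normalized counts) and with quantile normalization (*Fgf4* added). The lower calls became 0 without the filter, without the trend, and with the fold threshold. Leaving out each line in turn gave 2 higher and 0 to 1 lower. Over all genes, the calls were 1075 higher and 1217 lower without the trend, 521 and 137 with the fold threshold, and 1321 to 1655 higher and 1641 to 1728 lower with a line left out. *Fgfr1* was called under all 10 settings and in all 6 fits without a line (0.60 to 0.70 in the latter). Its limma adjusted p was 0.012 without the trend, and its log2 fold change was 0.33 under the correction, with or without the block. Values not past the threshold turned sign for *Spry2* (-0.01 with trimmed means of M values, -0.07 to 0.12 without a line), *Spry4* (-0.20 to 0.06 without a line), *Etv4* (0.04 with quantile normalization), the ratio of *Dusp6* to *Dusp4* (0.21 after correction, -0.49 to 0.34 without a line) and the ratio of *Spry4* to *Spry2* (-0.17 to 0.02 without a line). *Etv5* had limma adjusted p = 0.088 without the trend, and *Dusp6* 0.15 without the trend, 0.11 without the filter and 0.074 with quantile normalization. The cause was not tested. *Fgfr2* was -1.83 with quantile normalization (limma adjusted p = 0.034) and -1.48 to -0.62 without a *Tet iTKO* line, and as it passed the filter only through *Ctrl*, no fall is read from the former. It gave no value without any one of the *Ctrl* lines or with a mean of at least 50, where it fails the filter.

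Same-numbered lines come from different embryos and shared only a number, since their deviations from the group means correlated at 0.001, -0.005 and -0.003. With the replicate number as a block, the calls were 2 higher and 1 lower among the 10 genes and 1762 higher and 1980 lower over all genes. Low totals of normalized counts limit *Fgfr2*, *Dusp4* and *Egr1*, for which only large differences could be seen.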
